A study of Mus musculus with 9 samples.

Results

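The BCL2 family genes decide, at the mitochondrion, between survival and death of a cell. Of these, 10 are described here in mouse CD4+ T cells: Bcl2, Bcl2l1, Mcl1, Bax, Bak1, Bcl2l11, Bbc3, Pmaip1, Bid and Bad. They were listed by symbol, with earlier results of these data known. All 10 were found among the 25759 gene rows of the expression table. All 10 also passed the filter on low values, a mean over the 9 libraries of 0.5 FPKM or more, which left 15126 genes to test. FPKM counts fragments relative to transcript length and to the library's mapped fragments, so levels of different genes can be compared.

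RNA sequencing covered 9 libraries in 3 groups of 3, all from C57BL/6 mice aged 8 to 12 weeks that carry a Foxp3GFP reporter transgene. Naive wild-type (WT) cells were sorted as CD4+CD44-CD62+Foxp3GFP- without treatment. For activated WT cells, lymph node and spleen cells were cultured for 3 days with the T cell mitogen ConA (2 ug/ml) and LPS (10 ng/ml) and then sorted as CD4+CD44+CD62L-Foxp3GFP-. Activated knockout cells were cultured and sorted in the same way but came from BMPR1a/CD4cre conditional knockout mice, in which Cre is driven by the Cd4 promoter and so acts in developing T cells, those of the CD8 lineage included. BMPR1a is a receptor for bone morphogenetic proteins. Activation cannot be told apart from culture and from the different sort. Separate mice or cultures are not named for the replicates, so a p-value here reflects the spread among 3 libraries a group, which may be technical.

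3 kinds of protein make up the family. The pro-survival proteins BCL2, BCL-XL (encoded by Bcl2l1) and MCL1 hold the pore-forming effectors BAX and BAK (Bak1) in check, and effectors that are set free permeabilize the outer mitochondrial membrane. The BH3-only proteins BIM (Bcl2l11), PUMA (Bbc3), NOXA (Pmaip1), BID and BAD bind the pro-survival proteins, and some of them also activate BAX and BAK directly. In T cells, BCL2 and MCL1 are known for sustaining naive cells under interleukin-7, BCL-XL for its induction by CD28 costimulation, and BIM for the death of activated cells at the end of a response.

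Promoter windows are printed for the 2 members that differed between knockout and WT (Bax and Bcl2l1). They are also printed for Bcl2 and Bcl2l11, 1 of several pairs that moved in opposite directions on activation. Each window holds 250 bases before and 50 bases from the gene start, read 5′ to 3′ on the gene's strand, from RefSeq on GRCm38.p6. Capitals mark matches, on either strand, to 6 motifs searched: the p53 half-site consensus, the STAT motif TTCNNNGAA, the forkhead motif TGTTTAC, the palindrome GGCGCC, the E-box CACGTG and the cAMP response element TGACGTCA. No motif lies within another of the set.
Bax, chr7:45466849-45467148, minus strand: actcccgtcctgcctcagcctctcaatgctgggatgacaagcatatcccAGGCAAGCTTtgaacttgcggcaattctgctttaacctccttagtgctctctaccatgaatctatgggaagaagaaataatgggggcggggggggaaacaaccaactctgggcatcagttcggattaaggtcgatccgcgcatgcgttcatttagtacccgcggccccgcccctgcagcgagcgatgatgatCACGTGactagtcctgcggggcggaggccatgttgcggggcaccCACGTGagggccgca
Bcl2l1, chr2:152831679-152831978, minus strand: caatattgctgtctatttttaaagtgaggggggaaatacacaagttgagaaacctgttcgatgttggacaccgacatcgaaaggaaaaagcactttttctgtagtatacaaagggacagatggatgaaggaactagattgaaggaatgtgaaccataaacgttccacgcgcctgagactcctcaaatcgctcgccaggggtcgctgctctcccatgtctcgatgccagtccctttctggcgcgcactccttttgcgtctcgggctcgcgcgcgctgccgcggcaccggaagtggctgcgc
Bcl2, chr1:106714241-106714540, minus strand: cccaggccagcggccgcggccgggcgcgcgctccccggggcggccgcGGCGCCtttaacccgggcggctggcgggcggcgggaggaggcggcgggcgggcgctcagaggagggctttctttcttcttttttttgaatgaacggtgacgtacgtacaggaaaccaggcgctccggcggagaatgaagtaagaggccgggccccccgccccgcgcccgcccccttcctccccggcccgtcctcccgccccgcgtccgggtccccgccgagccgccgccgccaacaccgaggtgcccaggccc
Bcl2l11, chr2:128125788-128126087, plus strand: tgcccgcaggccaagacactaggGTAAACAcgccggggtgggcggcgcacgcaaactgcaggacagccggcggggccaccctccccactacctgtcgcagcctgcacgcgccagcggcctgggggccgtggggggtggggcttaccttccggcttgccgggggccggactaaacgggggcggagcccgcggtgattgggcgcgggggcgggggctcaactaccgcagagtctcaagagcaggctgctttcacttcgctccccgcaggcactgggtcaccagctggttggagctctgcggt
With the first base of the gene as position 0, the Bax window holds 1 p53 half-site match at -201 to -192 and CACGTG at -9 to -4 and at 35 to 40. Of all 32851 promoter windows of this length, 8.36% hold a p53 half-site match and 7.15% hold CACGTG. The Bcl2 window holds GGCGCC at -203 to -198, as 11.9% of all windows do, and the Bcl2l11 window shown, the more upstream of 2, holds TGTTTAC on the reverse strand at -227 to -221, as 3.65% do. The other Bcl2l11 window holds GGCGCC at -131 to -126 and at -51 to -46 and no TGTTTAC. None of the 6 motifs is in any of the 3 windows of Bcl2l1, of which the most upstream is shown. A match is a description of letters and not of a bound site. In all, 9 members had a window.

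The libraries carried signs of other cells, and all values below are of bulk samples, in which fewer cells of a type and less RNA per cell cannot be told apart. The summed level of the 6 CD4 T cell markers was 1586 to 1700 FPKM in naive, 2002 to 2104 in activated WT and 1751 to 1929 in knockout libraries, with no marker at 0. The 2 CD8 markers summed to 9.48 to 41.4, 147 to 230 and 219.6 to 279 FPKM in the same order. The 9 neutrophil markers reached 58.4, 691 and 113 FPKM in naive libraries 1, 2 and 3, with none at 0, and at most 1.28 FPKM in any activated library, where between 1 and 6 of them were listed at 0. The 6 erythroid markers summed to at least 63.6 FPKM in each naive library and to at most 1.72 in each activated one. The 7 NK cell markers summed to 31.1 to 84.4 FPKM in naive and 163 to 217 in activated libraries. In activated against naive WT, 3 NK markers were called higher and 3 lower, so the sum does not stand for all of them. Klrd1 stood at 18.7 to 28.1 FPKM in naive and 107 to 162 in activated libraries. Tyrobp stood at 6.23 to 41.2 in naive and at most 3.07 in activated ones. The 8 macrophage and monocyte markers summed to 151 to 327 FPKM in naive and 84.0 to 122 in activated libraries. Ctss alone stood at 126 to 157 FPKM in naive and 71.3 to 104 in activated libraries. In activated against naive WT, 5 of the 7 tested were called lower and 0 higher. Ly86 stood at 3.02, 2.94 and 12.2 FPKM in naive libraries 1, 2 and 3 and at 6.06 to 9.72 in activated ones. The 7 B cell markers were at 59.2, 3.29 and 190.2 FPKM in naive libraries 1, 2 and 3 and at 137 to 206 in activated ones. The 6 dendritic cell markers stayed at or under 6.61 FPKM in every library. Bmpr1a, the targeted gene, averaged 2.16 ± 0.759 FPKM over activated WT libraries and 1.36 ± 0.505 over knockout libraries (SD, n = 3 each), a log2 change of -0.41 that was not called (limma adjusted p = 0.261). Its groups overlapped, and reads from exons outside a deleted part would count here, so the measurement does not check the genotype label.

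Activated WT cells expressed less Bcl2 and Bid and more Bcl2l1, Bak1, Bcl2l11, Pmaip1 and Bad than naive WT cells, while Mcl1, Bax and Bbc3 did not pass the test. So 5 of 10 members rose and 2 fell, against 26.2% and 25.8% of all tested genes (52% in either direction). Called means an adjusted p under 0.05 in limma's moderated test on log2(FPKM + 1), with Benjamini-Hochberg adjustment over all tested genes. The 2 groups did not overlap at the same 7 members, 5 higher and 2 lower, against 59.4% of all tested genes (29.6% higher and 29.8% lower), and the median log2 fold change of the members was 0.50, against -0.01 for all tested genes. The count of members called stayed between 7 and 8 in all 20 alternatives. The marker sums of CD8, NK, neutrophil, macrophage and monocyte, and erythroid cells also separated naive from activated libraries, though NK markers went both ways. The part of such cells in these differences was not tested.

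In knockout against WT activated cells, Bcl2l1 and Bax rose and no member fell. These are 2 of 10 members, against 3.3% of all tested genes called higher, 0.84% called lower and 4.14% called in either direction. At an unadjusted p under 0.05, 5 members were higher and 0 lower, and no share of all tested genes is given at that threshold. With array quality weights 6 members were called higher and 1, Bcl2l11, lower. Those weights also called far more genes in all than the 626 of the main fit, as given below, so the shares above do not apply. Every knockout library lay above every activated WT library at 5 members (Bcl2l1, Bax, Bak1, Pmaip1 and Bid), against 22.8% of all tested genes, and no member lay wholly below, against 8.36% (31.2% in either direction). The members' median log2 fold change was 0.23 and that of all tested genes 0.06. Of the 626 genes called in this comparison 79.7% were higher. With median-of-ratios scaling 306 were called, 54.2% of them higher, and Bcl2l1 and Bax were among them. The CD8 marker sum was also higher in knockout libraries, with an overlap at 1 library of each group, and its part in these differences was not tested. Both comparisons share the activated WT libraries, so a member's values in them are not independent.

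**Figure D1:**
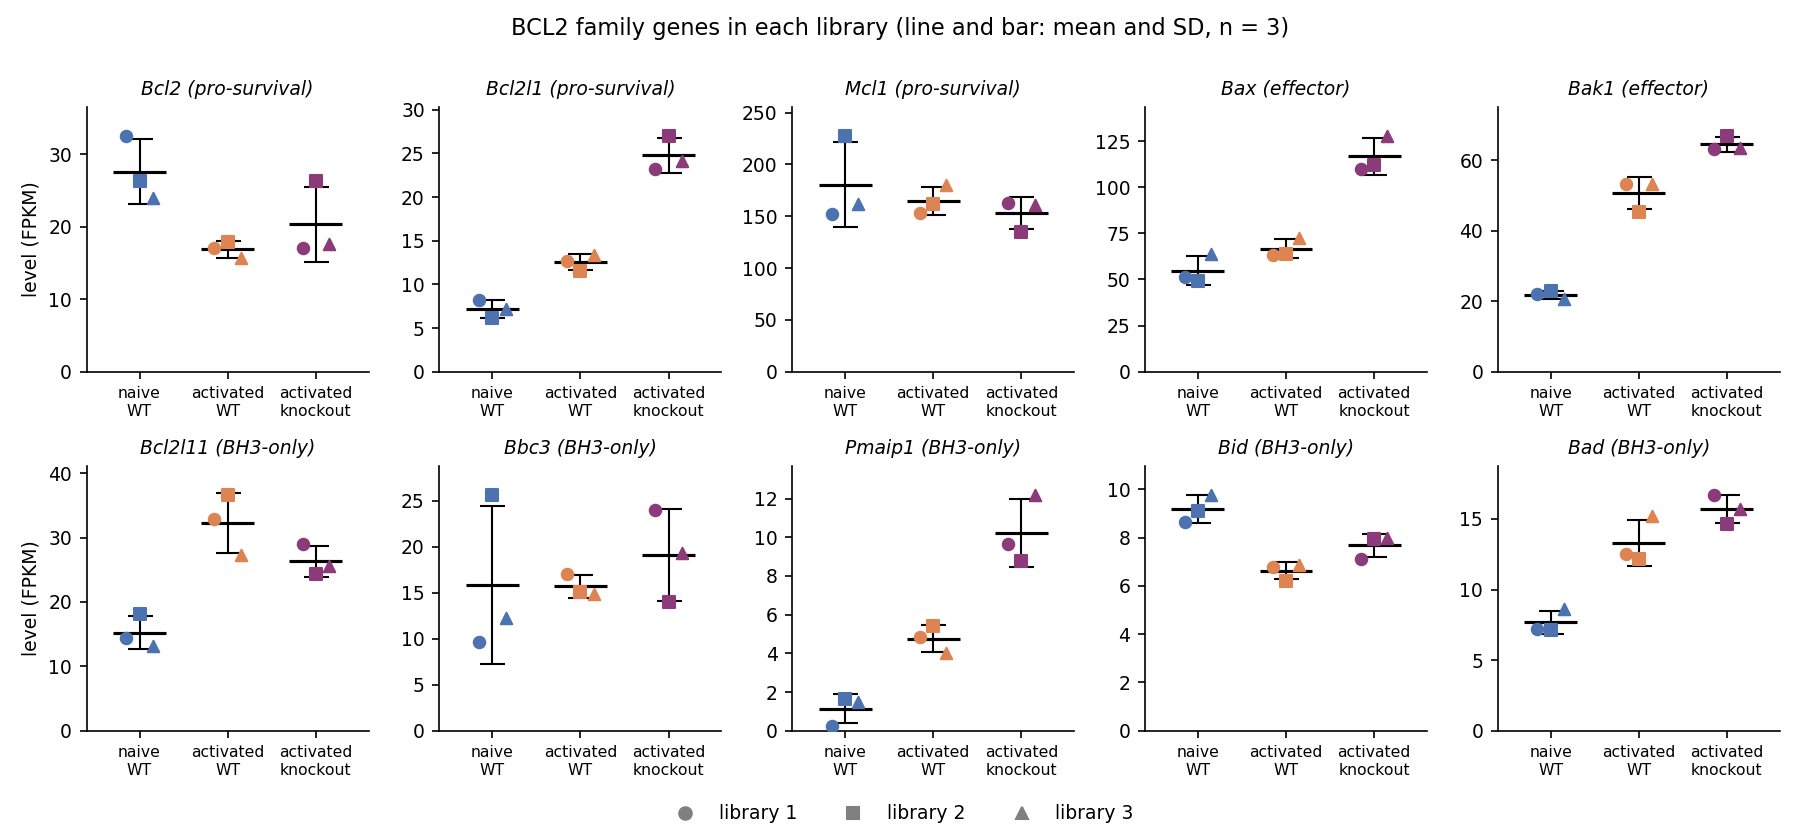
Level of each member in each of the 9 libraries (points, FPKM) by group, with a separate panel and linear axis for each member. Lines are group means and bars are SD. Mcl1 and Bax stood at the top in every group. Bcl2l1, Bax, Bak1 and Pmaip1 were higher in all 3 knockout libraries than in any other. Naive library 2 was the highest naive library for Mcl1, Bbc3, Bcl2l11, Bak1 and Pmaip1.

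**Figure D2:**
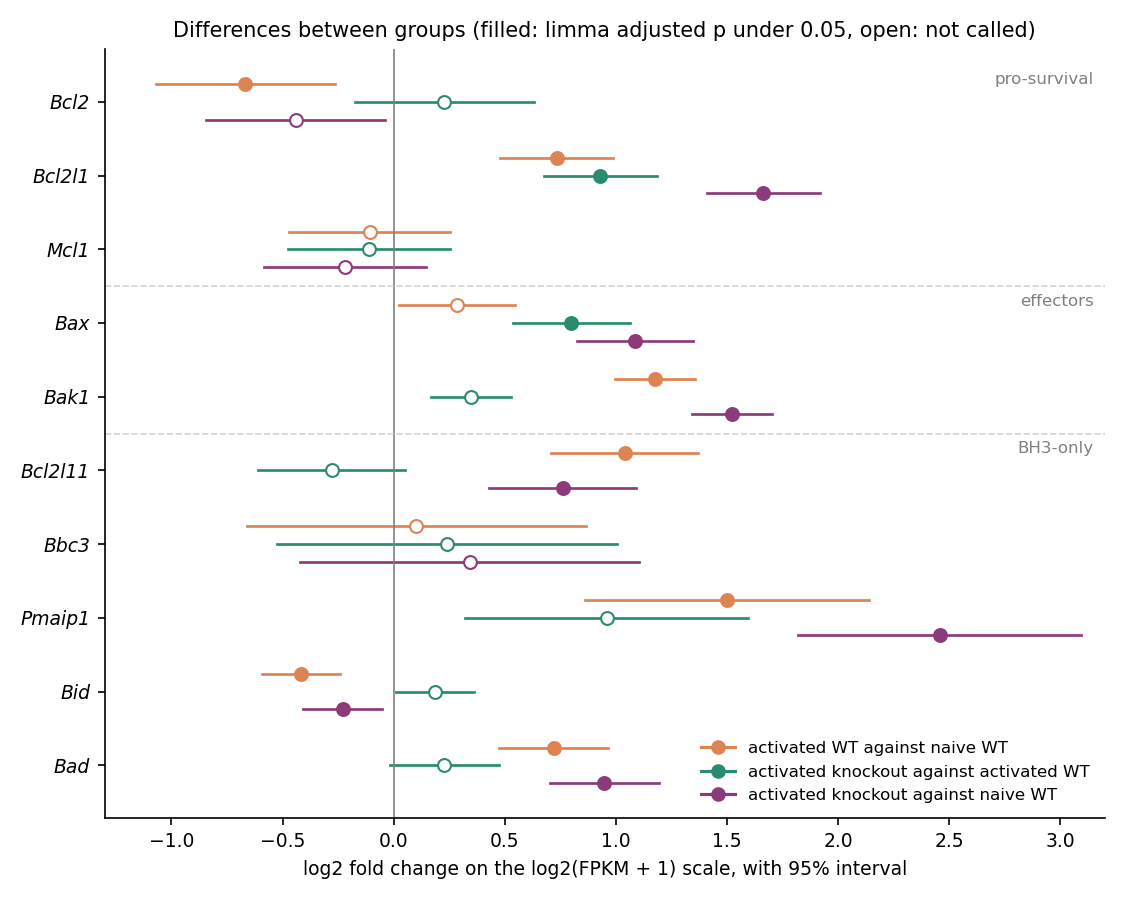
Log2 fold change of each member on the log2(FPKM + 1) scale with its 95% confidence interval, for the 3 comparisons, with called members filled. In activated against naive WT cells, Bak1, Bcl2l11, Pmaip1, Bcl2l1 and Bad lie above 0 and Bcl2 and Bid below 0.

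Among the pro-survival genes, Bcl2 (ENSMUSG00000057329, GRCm38 chr1:106538178-106714274, minus strand) had 32.5, 26.2 and 24.01 FPKM in naive libraries 1, 2 and 3, at 17.0, 17.9 and 15.7 in activated WT and at 17.1, 26.3 and 17.6 in knockout. All activated WT libraries lay below all naive ones, while knockout library 2 lay among the naive libraries and the other two with activated WT. Bcl2 fell by 0.67 log2 units on activation (SE 0.174, limma adjusted p = 0.0132). Knockout and WT did not differ by the test (0.23, 95% interval -0.17 to 0.63, limma adjusted p = 0.462). Against naive cells the knockout value was -0.44 (limma adjusted p = 0.061), and without knockout library 2 it was -0.63 and passed (limma adjusted p = 0.0068). The antisense gene D630008O14Rik, which shares 6.1% of the exon bases of Bcl2, also fell on activation (9.81 to 6.33 FPKM), and without a stated strand setting reads from the shared bases cannot be told apart.

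Bcl2l1, the gene of BCL-XL (ENSMUSG00000007659, chr2:152780668-152831728, minus strand) was higher in each group than in the one before. It was read at 8.26, 6.12 and 7.14 FPKM in naive, at 12.7, 11.6 and 13.4 in activated WT and at 23.2, 27.0 and 24.1 in knockout libraries. The 3 groups did not overlap. Its mean was 1.75 times higher in activated WT than in naive cells (0.73 log2 units, SE 0.110, limma adjusted p = 0.000981) and 1.98 times higher in knockout than in WT (0.93, SE 0.110, limma adjusted p = 0.0107). The second difference was no longer called without activated WT library 2 (limma adjusted p = 0.0529) or with a block for replicate number in the fit (0.0573). Over all alternatives its limma adjusted p ran from 0.00237 to 0.0573.

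Mcl1 (chr3:95658788-95663176, plus strand), whose protein turns over quickly, was the most abundant member in every group. It was read at 152, 228 and 162 FPKM in naive, at 154, 162 and 179.9 in activated WT and at 163, 135 and 161 in knockout libraries. The groups overlapped, and only naive library 2 stood above the rest. Neither contrast was called: -0.11 for activated against naive WT (95% interval -0.47 to 0.26, limma adjusted p = 0.589) and -0.11 for knockout against WT (-0.47 to 0.25, limma adjusted p = 0.719). Naive library 2 was also the one with the most neutrophil marker RNA, and without it the first value turned to 0.070 (limma adjusted p = 0.621). The part of those cells in the level was not tested.

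Of the effector genes, Bak1 rose on activation and Bax was higher in the knockout. Bax (ENSMUSG00000003873, chr7:45461697-45466898, minus strand) was read at 51.5, 48.9 and 63.7 FPKM in naive, at 63.2, 64.0 and 72.6 in activated WT and at 109.9, 112 and 128 in knockout libraries. Naive and activated WT overlapped at 1 library, while every knockout library lay far above both. The difference between activated and naive WT was 0.29 (95% interval 0.02 to 0.55, limma adjusted p = 0.0657), and without naive library 3 it passed (limma adjusted p = 0.0111). Knockout exceeded WT by 0.80 on the log2 scale, 1.75 times in the mean (SE 0.113, limma adjusted p = 0.0204). That call was lost without activated WT library 2 (0.0879), knockout library 2 (0.0632) or knockout library 3 (0.0863), all limma adjusted p, which ran from 0.00237 to 0.0879 over all alternatives. Gm45808, a protein-coding gene on the same strand, shares 12.2% of the exon bases of Bax. It has no values here, and reads from the shared bases cannot be told apart.

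Bak1 (chr17:27019810-27029009, minus strand) was read at 22.0, 22.9 and 20.6 FPKM in naive, at 53.2, 45.3 and 53.3 in activated WT and at 63.1, 66.9 and 63.5 in knockout libraries. The 3 groups did not overlap. The rise on activation was 1.18 on the log2 scale (SE 0.0776, limma adjusted p = 2.23e-05), the smallest adjusted p of the members in that comparison. The further difference in the knockout, 0.35 (SE 0.0776), narrowly missed the threshold (limma adjusted p = 0.0507, exact permutation p = 0.1, the smallest that 3 against 3 libraries allow). It was called when genes under a mean of 2 FPKM were left out (limma adjusted p = 0.0464) and with array quality weights (0.00786). Ggnbp1, on the opposite strand, shares 18.2% of the exon bases of Bak1 and stood at 1.61 to 2.51 FPKM in the group means.

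Of the BH3-only genes, Bcl2l11, the gene of BIM (ENSMUSG00000027381, chr2:128126038-128162547, plus strand), was read at 14.4, 18.1 and 13.1 FPKM in naive, at 32.8, 36.7 and 27.4 in activated WT and at 29.0, 24.4 and 25.5 in knockout libraries. All activated libraries of both genotypes lay above all naive ones. It rose on activation by 1.04 on the log2 scale, 2.12 times in the mean (SE 0.142, limma adjusted p = 0.00064). Knockout minus WT was -0.28 (95% interval -0.61 to 0.05, limma adjusted p = 0.268), with an overlap at 1 knockout and 1 WT library.

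Pmaip1, the gene of NOXA on chromosome 18, was the member with the lowest level in naive cells. It was read at 0.268, 1.63 and 1.502 FPKM in naive, at 4.85, 5.42 and 4.01 in activated WT and at 9.67, 8.80 and 12.2 in knockout libraries. The groups did not overlap. The rise on activation was 1.499 (SE 0.276, limma adjusted p = 0.00264), and without naive library 1 it was 1.16. The knockout difference, 0.96 (95% interval 0.32 to 1.596), did not pass (limma adjusted p = 0.0864), and without that library, the lowest of all, it did (limma adjusted p = 0.0482), as all 9 libraries share 1 estimate of the spread in the fit.

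Bbc3, the gene of PUMA (chr7:16308393-16318205, plus strand), did not differ by the test in either contrast. It was read at 9.60, 25.7 and 12.2 FPKM in naive, at 17.1, 15.1 and 14.9 in activated WT and at 23.97, 14.025 and 19.3 in knockout libraries, so that the groups overlapped widely. The log2 fold changes were 0.10 (95% interval -0.66 to 0.87, limma adjusted p = 0.818) and 0.24 (-0.52 to 1.004, limma adjusted p = 0.709). As for Mcl1, naive library 2 was the highest of its group, and without it the first value was 0.49 (limma adjusted p = 0.0994). Without naive library 1 it was -0.17 and without naive library 3 -0.013.

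Bid (chr6:120891930-120916853, minus strand), whose protein is cut by caspase 8 and links death receptors to mitochondria, was the BH3-only gene that fell. It was read at 8.64, 9.11 and 9.78 FPKM in naive, at 6.79, 6.21 and 6.88 in activated WT and at 7.12, 7.93 and 7.99 in knockout libraries. The 3 groups did not overlap, with knockout in the middle. Bid fell by 0.42 log2 units on activation (SE 0.0761, limma adjusted p = 0.00258), and the knockout difference of 0.19 was not called (limma adjusted p = 0.179). Bad (chr19:6941861-6951899, plus strand), whose protein is held inactive by phosphorylation, was read at 7.23, 7.15 and 8.64 FPKM in naive, at 12.5, 12.2 and 15.2 in activated WT and at 16.7, 14.7 and 15.7 in knockout libraries. All activated libraries lay above all naive ones, and the activated groups overlapped. Bad rose on activation by 0.72 (SE 0.106, limma adjusted p = 0.000914), and knockout minus WT was 0.23 (limma adjusted p = 0.230). Exons of opposite-strand neighbours cover 17.7% of Bid (Bcl2l13) and 20.5% of Bad (Gpr137), and Gpr137 rose on activation too, from 4.48 to 6.46 FPKM.

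In knockout against naive cells, where genotype and activation differ together, 6 members rose and 1 fell, against 31.8% and 25.1% of all tested genes (56.9% in either direction). The groups did not overlap at the same 7 members, against 63.8% of all tested genes (35.2% higher and 28.7% lower). Those that rose were Pmaip1 (log2 fold change 2.46), Bcl2l1 (1.66), Bak1 (1.52), Bax (1.09), Bad (0.95) and Bcl2l11 (0.76), with limma adjusted p of at most 0.00249. Bid fell by 0.23 (limma adjusted p = 0.0321), a call lost in 7 of 20 alternatives: array quality weights, a fit of these 6 libraries alone, and the fits without naive library 2 or 3 or any 1 knockout library. Mcl1 (-0.22, limma adjusted p = 0.263) and Bbc3 (0.34, limma adjusted p = 0.402) were not called. Without naive library 2 the value for Bbc3 was 0.73 and passed (limma adjusted p = 0.0256).

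Because FPKM is per length, levels of different members can be set against each other within a library. The log2 ratio of Bcl2l11 to Bcl2 was -1.18, -0.54 and -0.87 in naive, 0.95, 1.03 and 0.80 in activated WT and 0.76, -0.11 and 0.54 in knockout libraries. BIM transcript was thus below BCL2 transcript in every naive library and above it in every activated library except knockout library 2. The log2 ratio of Bcl2l1 to Bcl2 was -1.98, -2.10 and -1.75 in naive, -0.42, -0.63 and -0.23 in activated WT and 0.44, 0.041 and 0.46 in knockout libraries. Bcl2l1 was therefore below Bcl2 in every WT library and above it in every knockout library. Bax stood above Bcl2 throughout, by 0.66 to 1.41, 1.84 to 2.21 and 2.10 to 2.86 log2 units in the 3 groups.

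**Figure D3:**
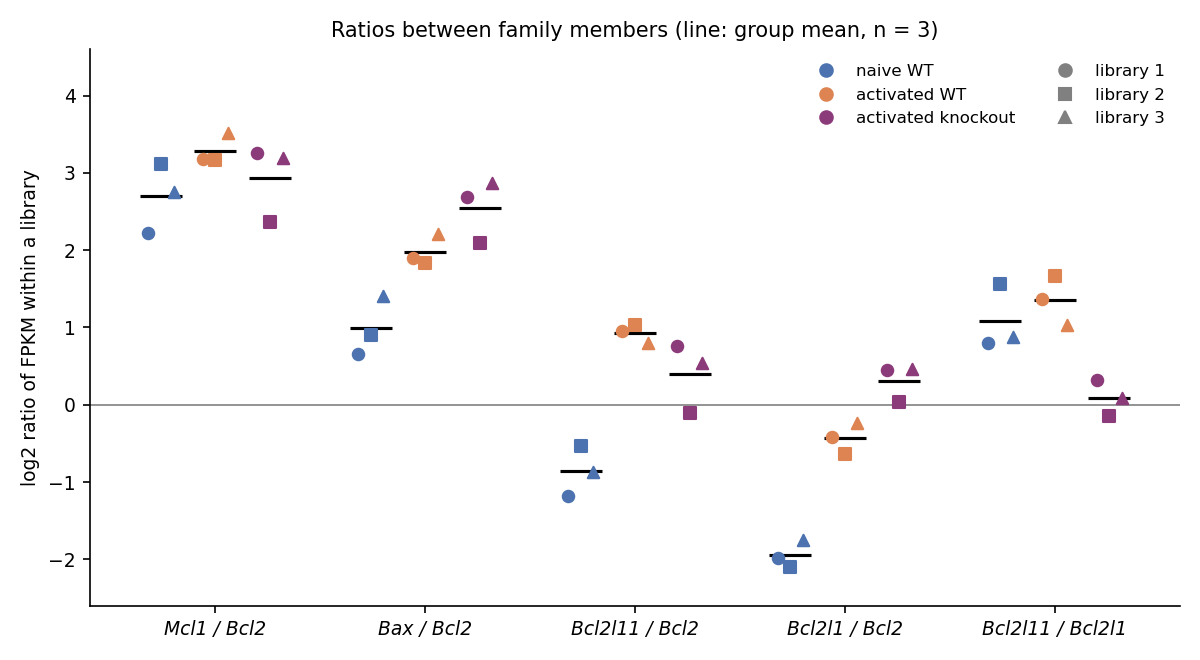
Log2 ratios of FPKM between members within each of the 9 libraries (points) by group, with group means as bars and a line at equal levels. Bcl2l1 over Bcl2 lies below 0 in all 6 WT libraries and above 0 in the 3 knockout libraries.

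A pair of ratios over Bcl2l1 was added after the values had been seen. Bax over Bcl2l1 was 2.64, 3.00 and 3.16 in naive, 2.32, 2.47 and 2.44 in activated WT and 2.24, 2.05 and 2.41 in knockout libraries, so activated WT and knockout overlapped although both genes were higher in the knockout. Bcl2l11 over Bcl2l1 was 1.03 to 1.67 in activated WT and -0.15 to 0.32 in knockout libraries, without overlap. Summed by role, the 2 effectors reached 71.8 to 84.2 FPKM in naive, 109 to 126 in activated WT and 173 to 192 in knockout libraries. The 3 pro-survival genes summed to 193 to 260, 183 to 209 and 188 to 203 FPKM and overlapped between all groups, and Mcl1 made up 71.7% to 87.6% of that sum. Without Mcl1, Bcl2 and Bcl2l1 summed to 31.1 to 40.8, 29.0 to 29.7 and 40.2 to 53.3 FPKM. That sum did not overlap between activated WT and knockout but did between naive and knockout. The 5 BH3-only genes summed to 40.1 to 61.7, 68.3 to 75.5 and 69.8 to 86.4 FPKM.

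The members' median coefficient of variation was 15.5% in naive, 7.99% in activated WT and 8.73% in knockout libraries, against 10.3%, 8.37% and 8.05% over the 10251 genes that averaged 5 FPKM or more. The 3 genes most like a member were named by the root mean square difference of their centred log2(FPKM + 1) profiles over the 9 libraries, among 8048 genes. For Bcl2 these were Htt, Dcaf1 and Tsr1 (differences 0.13, 0.13 and 0.14), for Bcl2l11 Zc3hav1, Cd28 and Crybg1 (0.10, 0.11 and 0.12) and for Bax Ydjc, Gadd45b and Cdc34 (0.13, 0.14 and 0.15). Cd28, a costimulatory receptor gene, stood at 69.1, 147 and 117 FPKM in the group means, and Gadd45b at 6.34, 6.98 and 12.8.

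Of 16 symbols on a list of other genes of the family 13 were in the table and 10 were tested. Bcl2a1a, Bcl2a1d and Bcl2l10 were not analysed here, and Bok, Hrk and Bcl2l15 were below the filter. In activated against naive WT cells 6 of 10 were called higher and none lower, against 26.2% and 25.8% of all tested genes. The counts were the same at an unadjusted p under 0.05, for which no share of all tested genes is given. Bnip3, a mitochondrial BH3-like gene tied to mitophagy, rose from 4.16 ± 0.520 to 48.8 ± 30.9 FPKM (SD, n = 3; log2 fold change 2.99, limma adjusted p = 0.0057), with 73.5, 58.7 and 14.2 in the 3 activated WT libraries. Bcl2l2, the gene of the pro-survival protein BCL-w, rose from 1.03 to 5.99 FPKM (1.79), the pro-survival gene Bcl2a1b from 16.9 to 33.9 (0.999) and Bnip3l from 67.6 to 134 (0.96). Bik (0.52) and Bcl2l14 (0.79) rose at means under 2 FPKM. Bmf (0.37), Bcl2l12 (-0.26), Bcl2l13 (0.087) and Moap1 (0.13) were not called. In knockout against activated WT none of the 10 was called by limma, and at an unadjusted p under 0.05 Bcl2a1b was higher (0.48) and Bnip3l lower (-0.43). Exons of Bcl2a1b, Moap1 and Bcl2l2 overlap those of same-strand genes over 49.1%, 87.7% and 13.3% of their bases, so their values are uncertain.

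Around the family, 52% of all tested genes were called on activation, 26.2% higher and 25.8% lower, and the counts for the apoptosome and death receptor lists stood near that background. Of 17 genes for the apoptosome, caspases and their inhibitors 5 rose and 3 fell. Of those that fell, Birc6, which encodes a caspase inhibitor, fell by 0.95. Of 11 death receptor genes 2 rose and 4 fell, with Fas up by 0.94 and the ligand gene Tnf down (log2 fold change -1.05). In knockout against WT, 4 of the 17 were higher and 0 lower at an unadjusted p under 0.05. No share of all tested genes is given at that threshold. By limma's adjusted p none of the 17 was called and 1 of the 11 was, against 4.14% of all tested genes. That gene, Tnfrsf10b, a TRAIL receptor at 1.92 and 4.05 FPKM in activated WT and knockout (0.79, limma adjusted p = 0.0145), was named after its values were seen, as it lies under the level set for naming.

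Of 19 genes that act upstream of family transcription, 8 rose and 5 fell on activation, against 26.2% and 25.8% of all tested genes. Il2ra, the interleukin-2 receptor alpha chain, rose by 4.35 on the log2 scale (limma adjusted p = 7.55e-05), and Il7r, the receptor of the survival cytokine interleukin-7, fell by 0.97 (limma adjusted p = 0.00238). In knockout against WT 2 of the 19 were called higher and none lower, against 3.3% and 0.84% of all tested genes. At an unadjusted p under 0.05, 6 were higher and 2 lower, and no share of all tested genes is given at that threshold. Cdkn1a, the gene of the p53 target p21, averaged 6.17 ± 2.42 FPKM over activated WT libraries and 26.4 ± 6.95 over knockout libraries (1.96 log2 units, limma adjusted p = 0.0232). Trp53, the gene of p53 itself, was at 67.6 and 85.7 FPKM (0.34, limma adjusted p = 0.0411) and was named after its values were seen. Of the same list, Mdm2 (0.17, limma adjusted p = 0.290) and Mdm4 (-0.19, limma adjusted p = 0.544) were not called. A part of p53 in these differences was not tested. Of 14 genes for the stability and phosphorylation of family proteins, 6 rose and 4 fell on activation, against the same 26.2% and 25.8%, led by the mitochondrial channel gene Vdac1 (1.298) and by Huwe1, which encodes a ubiquitin ligase of MCL1 (-1.20). None of these 14 was called in the knockout, where 5 were higher and 0 lower at an unadjusted p under 0.05. For that count too, no share of all tested genes is given.

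**Figure D4:**
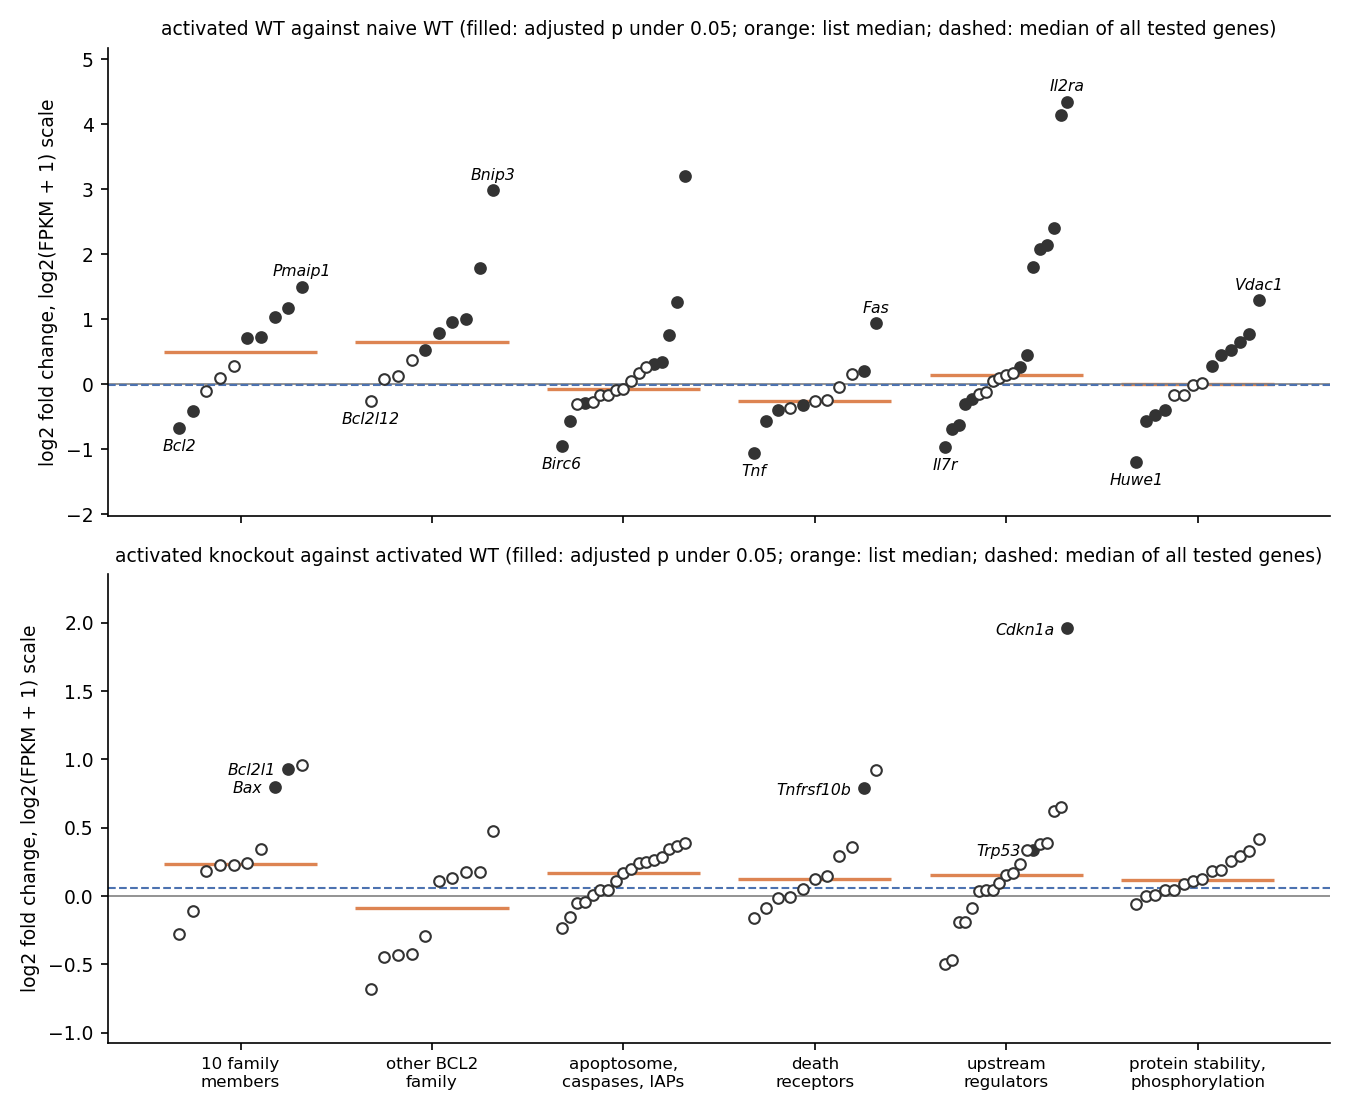
Log2 fold change of every tested gene of the 6 lists in activated against naive WT cells (top) and in knockout against WT activated cells (bottom), on the log2(FPKM + 1) scale, with called genes filled, list medians in orange and the median of all tested genes dashed. Called genes lie on both sides of 0 in the upper panel, and the 5 called genes of the lower panel all lie above 0.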

How the data were processed

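The authors deposited 1 table of FPKM values for the 9 libraries, made with TopHat2, Cufflinks and Cuffdiff on GRCm38 per the submitters' processing notes. Tool versions, annotation and strand setting: not given in the sources used here. FPKM values are fractional estimates, so the depth of each library and the counting error are unknown, and no interval of that kind is given. Symbols were matched to 24876 of 25759 rows. Gene positions come from the GENCODE annotation of GRCm38.

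The 10 members, the gene lists and the tests were chosen with earlier results of these data known. Groups were taken from the sample labels. The 15126 genes averaging 0.5 FPKM or more entered limma 3.58.1 (R 4.3.3) as log2(FPKM + 1). Group means of all 9 libraries were fitted together, and contrasts were tested two-sided by moderated statistics with a trend on intensity, with Benjamini-Hochberg adjustment and calls at an adjusted p under 0.05. Fold changes on this scale understate changes of low genes. The fit was tested on simulated data. Errors are SD over 3 libraries, and SE is that of the fit. From each pathway list, the called gene that rose most and the called gene that fell most were named in each comparison, at a mean of at least 5 FPKM in the higher group (1 such gene is not reported here), and every tested gene of the list of other family genes. There were 20 alternatives per comparison, in pseudocount, filter, scaling, variance model, weights, replicate block and left-out libraries. Within groups, libraries correlated at 0.911 to 0.934 across tested genes, and sums over protein-coding genes were 533140 to 595890 FPKM. Sums over all rows were less even, 3446200 to 5732000 in naive, 10296000 to 13114000 in activated WT and 6959900 to 10530000 in knockout libraries.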

Additional observations from a re-analysis of the deposited data

How the results depend on the processing

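Of 600 calls of single members set against an alternative, 568 kept their direction and their side of the threshold, 12 were lost, 16 were gained and 4 turned direction. In activated against naive WT, Mcl1 turned to 0.031 with array quality weights and to 0.070 without naive library 2, and Bbc3 to -0.17 without naive library 1 and to -0.013 without naive library 3. None of these 4 was called, and leaving out 1 library gave -0.22 to 0.070 for Mcl1 and -0.17 to 0.49 for Bbc3. In knockout against activated WT, where 2 members were called, 7 were called with array quality weights and 1, Bax, with the replicate block (Bcl2l1 then had a limma adjusted p of 0.0573), and leaving out 1 library gave 0 to 3. The number of all genes called in that comparison was 626. It was 416 without the filter on low values, 306 with median-of-ratios scaling, 308 with quantile normalization, 3851 with array quality weights, 92 with only the 6 libraries compared and 58 with the replicate block. Leaving out 1 library gave 64 to 1037. The cause was not tested. Counts in the other two comparisons stayed within 1.5 times of the main ones. The replicate numbers were shared between groups, and the deviations of same-numbered libraries from their group means correlated at 0.0027 to 0.054 over 9 pairs. Differently numbered libraries of 2 groups correlated at -0.068 to 0.038. The same-numbered values were low but all above 0, so they do not settle whether the numbers pair libraries. The main fit did not pair them. The own number gave the highest correlation in 12 of 18 combinations of a library and another group. With the replicate block, 8 members were called in activated against naive WT and 7 in knockout against naive WT. Depth is unknown, which limits what can be said of low members such as Pmaip1 in naive cells.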

Other observations

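In knockout against naive cells, the lists around the family gave these counts, against 31.8% of all tested genes called higher and 25.1% called lower (56.9% in either direction). Of 17 genes for the apoptosome, caspases and their inhibitors 6 rose and 2 fell, with Birc6 at a log2 fold change of -1.18. Of 11 death receptor genes 3 rose and 3 fell, with Fas at 0.85 and Cflar, which encodes a caspase 8 inhibitor, at -0.56. Of 19 upstream regulators 11 rose and 4 fell, with Il2ra at 4.999 and Il7r at -1.46. Of 14 stability and phosphorylation regulators 6 rose and 3 fell, with Vdac1 at 1.34 and Huwe1 at -1.20. Among the other family genes 6 of 10 rose and none fell: Bnip3 (2.31), Bcl2l2 (1.498), Bcl2a1b (1.48), Bik (0.70), Bnip3l (0.52) and Bcl2l13 (0.20). The counts were the same at an unadjusted p under 0.05, for which no share of all tested genes is given.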
